A study of Mus musculus with 18 samples.

Results

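Autophagy delivers cytoplasm to the lysosome inside a double membrane, and the genes of that route and of the lysosome itself were followed here in mouse embryonic stem cells depleted of nucleolin. The rule that chose them goes by gene name, though it was set with earlier results of these data known. A probe belonged when its gene symbol in GEO's platform annotation began with Atg or Lamp and a digit, or with Atp6v, Map1lc3 or Gabarap, or was Cts and 1 further letter. Probes for Sqstm1, Ulk1, Ulk2, Tfeb and Becn1 completed the set. The rule found 128 of the 45281 probes on the array, for 69 of its 19057 named genes. Of these, 83 probes were detected on all 3 arrays of at least 1 group, and 54 genes could be tested.

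CGR8 embryonic stem cells (strain 129P2/Ola) carried a stably integrated, tetracycline (Tc) inducible siRNA. The 6 groups were the Ncl-1 line with Tc and without it, the Ncl-2 line with Tc and without it, both with an siRNA against nucleolin (Ncl), and the EGFP control line with Tc and without it. EGFP is a gene that mice do not carry. Cells were cultured for 3 days, and each group had 3 Illumina Mouse-6 version 2 arrays. The labels do not say what promoter drives the siRNA, whether a line is 1 clone, or whether replicates were separate cultures, so the p-values rest on a spread between arrays that could be technical. The lines without Tc carry the same insert as their partners with Tc. The labelled cell type matched its markers: all 10 embryonic stem cell markers were detected and 0 were called in either nucleolin line's response to Tc (1 in the Ncl-1 line and 2 in the Ncl-2 line with the replicate block described below). Of 4 tested endoderm, 2 macrophage and 3 fibroblast markers 0 were called without that block in these responses. With it, Gata6 (1.85, limma adjusted p = 0.0275) and Fcgr3 (0.87, 0.034) were higher and Sox7 (-1.47, 0.0255) lower in the Ncl-2 line with Tc. The macrophage markers Ptprc, Lyz2 and Spi1 were detected on no array. Of the trophoblast markers, given beside the cathepsins, only Krt7 and Ascl2 could be tested. Krt7 rose in both nucleolin lines and Ascl2 in the Ncl-2 line, and with the block both rose in both lines. Nucleolin was lowered in the induced nucleolin lines. Its log2 signal was 7.10, 6.48 and 7.52 in the Ncl-1 line with Tc, against 11.21, 11.80 and 12.10 without it. Ncl-2 cells gave 7.12, 6.42 and 7.43 with Tc, against 10.93, 11.39 and 11.77 without it.

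As background, the ULK1 kinase complex, with ATG13, starts an autophagosome, and a lipid kinase complex with Beclin 1 marks the membrane. ATG9 proteins are lipid scramblases of the vesicles that seed it, and ATG2 proteins transfer lipid into it. ATG3, ATG5, ATG7, ATG12 and ATG16L1 attach LC3 and GABARAP proteins to the growing membrane, where SQSTM1 (p62) tethers cargo. After fusion, the vacuolar proton pump (V-ATPase, a membrane V0 and a cytosolic V1 part) acidifies the lysosome, cathepsins cut proteins, and LAMP proteins line its membrane. TFEB is a transcription factor that activates many genes of both steps.

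Without the replicate block described below, few of these genes were called on nucleolin depletion. Ulk1 and Atg9b, which act as autophagosomes form, rose in both lines. With Tc in the Ncl-1 line, 2 of 54 tested genes rose and 0 fell (3.7%), against 8.12% of all 10557 genes tested (5.38% higher and 2.74% lower). In the Ncl-2 line, 2 rose and 0 fell (3.7%), against 9.13% of all genes (6% higher and 3.14% lower). A call is a limma adjusted p (Benjamini-Hochberg over all 10557 genes) below 0.05. In the EGFP line 0 of 54 were called, against 0% of all genes. At an unadjusted limma p below 0.05 there were 0 of 54, against 13 of all 10557 genes. The median log2 change of the 54 genes was 0.09 in the Ncl-1 line, 0.07 in the Ncl-2 line and -0.02 in the EGFP line. Over all genes tested it was -0.04, -0.05 and -0.00. Measured in bulk, a change in RNA per cell and a change in the share of cells of a kind cannot be told apart.

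Arrays with the same replicate number deviated together, so results that changed when the model also held the replicate number, as a block, are given both ways. With it, 6 rose and 2 fell in the Ncl-1 line (14.8%, against 26.7% of all genes, 14.2% higher and 12.5% lower). In the Ncl-2 line 9 rose and 2 fell (20.4%, against 26.9%, 13.9% higher and 13.1% lower). Besides Ulk1 and Atg9b, the genes Atg13, Atg2b, Ctsa and Sqstm1 rose and Ctsz fell in both lines with the block. The EGFP line kept 0 calls, against 0% of all genes with the block. Over both directions together, the share of these genes called was no higher than that of all genes in any of these responses. Of the genes that rose with the block, it was higher in the Ncl-2 line (16.7% of these genes, against 13.9%).

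**Figure D1:**
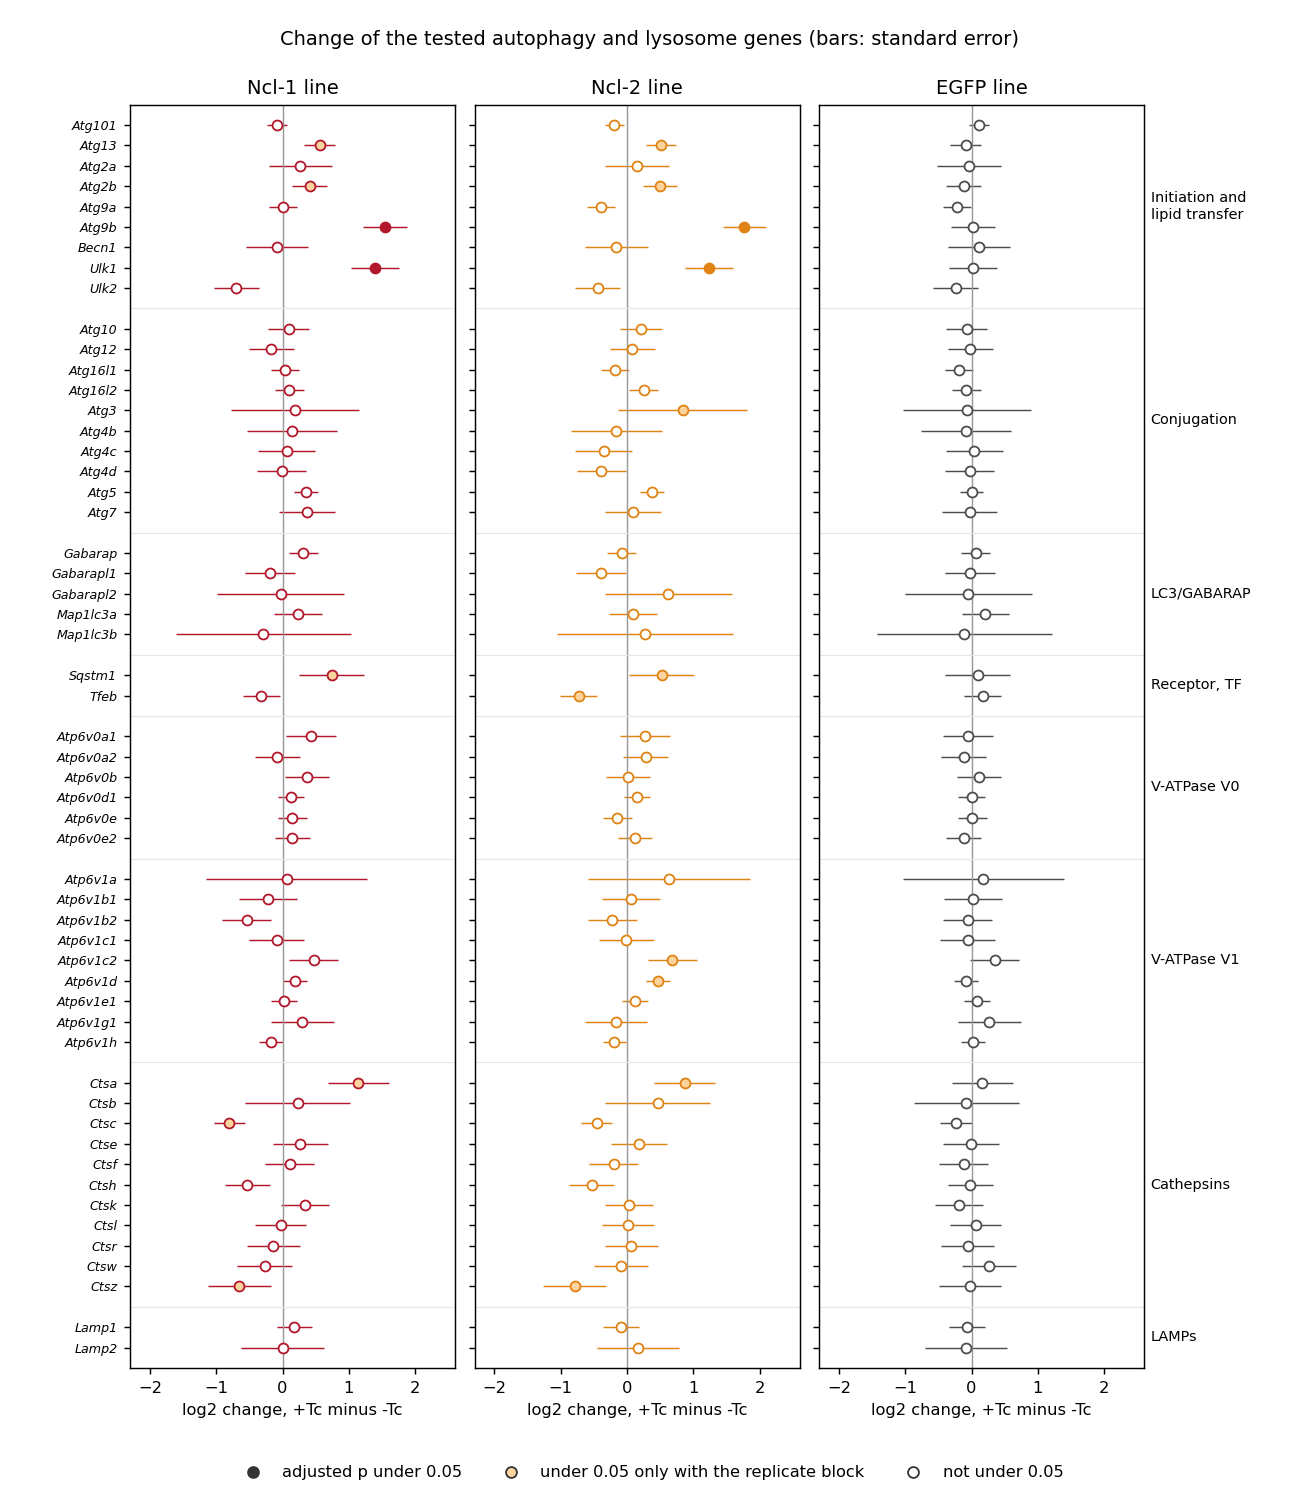
Log2 change (+Tc minus -Tc) of the 54 tested autophagy and lysosome genes, by role, in the Ncl-1, Ncl-2 and EGFP lines, with bars for the standard error. Filled points passed an adjusted p of 0.05 without the replicate block, shaded points only with it. Ulk1 and Atg9b lie at 1.23 to 1.77 in both nucleolin lines, while all EGFP values lie between -0.24 and 0.35.

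Ulk1 encodes the protein kinase that starts autophagosome formation. Its log2 signal was 12.38, 11.81 and 11.61 in the Ncl-1 line with Tc, against 11.22, 10.33 and 10.08 without it. For Ncl-2 the values were 12.09, 11.86 and 11.59 with Tc, against 11.16, 10.26 and 10.44 without it. EGFP cells gave 10.71, 10.34 and 9.77 with Tc, against 10.63, 10.38 and 9.76 without it. In either nucleolin line every array with Tc lay above every array without it, while the EGFP groups overlapped. Such separation was common in the nucleolin lines. In the Ncl-1 line 5 of the 54 genes lay wholly higher with Tc and 4 wholly lower, against 12% and 10.6% of all genes tested. For Ncl-2 the counts were 4 and 2, against 12.4% and 11.6%. For EGFP they were 0 and 0, against 0.673% and 1.17%.

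The log2 change of Ulk1 was 1.39 ± 0.36 (SE, n = 3 each), or 2.63-fold (limma adjusted p = 0.0243), for Ncl-1. For Ncl-2 it was 1.23 ± 0.36, or 2.35-fold (limma adjusted p = 0.0428). In the EGFP line it was 0.02 ± 0.36. With the replicate block the standard error was 0.17 and the adjusted p was 3.2e-05 and 9.1e-05. A further Ulk1 probe gave 1.42 ± 0.34 and 1.37 ± 0.34 (limma adjusted p over all kept probes 0.0211 and 0.0237). Adjusted over the same probes, the probe that stands for Ulk1 lost its Ncl-2 call (limma adjusted p = 0.0562). That call was also lost in a fit without the detection filter (limma adjusted p = 0.0641). The mean response of the nucleolin lines exceeded that of the EGFP line by 1.29 ± 0.44, which missed the threshold without the block (limma adjusted p = 0.145) and passed it with the block (± 0.21, adjusted p = 7.6e-04). Ulk1 differed between the Ncl-1 and Ncl-2 responses by 0.16 ± 0.51.

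Without the block the Ulk1 call depended on single arrays. The Ncl-1 call was lost when replicate 1 with Tc was left out of that line (limma adjusted p = 0.112), and also without its replicate 2 (0.0971) or 3 (0.103) grown without Tc. The Ncl-2 call was lost without replicate 1, 2 or 3 of that line with Tc (limma adjusted p = 0.155, 0.103 and 0.0559), and without its replicate 2 or 3 grown without Tc (0.178 and 0.12). Replicate 2 of the Ncl-1 line, with or without Tc (0.0548 each), and of the EGFP line, with Tc (0.0575) or without it (0.0572), also decided it. A fit of only the 2 groups compared also ended the Ulk1 calls (limma adjusted p = 0.125 for Ncl-1 and 0.0797 for Ncl-2). The Ncl-2 change itself stayed between 1.05 and 1.36 in these removals. With the block it was called in 18 of 18 removals in either line.

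Atg9b encodes a member of the ATG9 family of scramblases. Its log2 signal was 9.63, 8.99 and 9.94 in the Ncl-1 line with Tc, against 8.22, 7.79 and 7.91 without it. The Ncl-2 arrays read 10.41, 9.99 and 9.02 with Tc, against 8.50, 7.80 and 7.81 without it. For EGFP the values were 8.23, 8.29 and 8.55 with Tc, against 8.19, 8.28 and 8.56 without it. Again no array with Tc overlapped those without it in the nucleolin lines.

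The log2 change of Atg9b was 1.55 ± 0.33 (2.92-fold, limma adjusted p = 0.00806) in the Ncl-1 line and 1.77 ± 0.33 (3.41-fold, limma adjusted p = 0.00301) in the Ncl-2 line. It was 0.02 ± 0.33 in the EGFP line. Both nucleolin calls held in 18 of 18 removals of 1 array, but not in a fit of only the 2 groups compared (limma adjusted p = 0.0593 and 0.0622). The nucleolin response exceeded the EGFP response by 1.64 ± 0.40 (limma adjusted p = 0.0364, or 0.00573 with the block), the only such call among the 54 genes without the block, against 3.29% of all genes (2.53% higher and 0.758% lower). That call held in 4 of 18 removals without the block, with an adjusted p up to 0.0986 when EGFP +Tc replicate 1 or 2 was left out, and in 18 of 18 with it. Atg9a, the other ATG9 gene, had a change of 0.01 ± 0.21 in the Ncl-1 line and -0.39 ± 0.21 in the Ncl-2 line and was not called. Its group means were only 5.20 to 5.69, close to background, and 2 of 3 Ncl-2 arrays with Tc detected it.

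**Figure D2:**
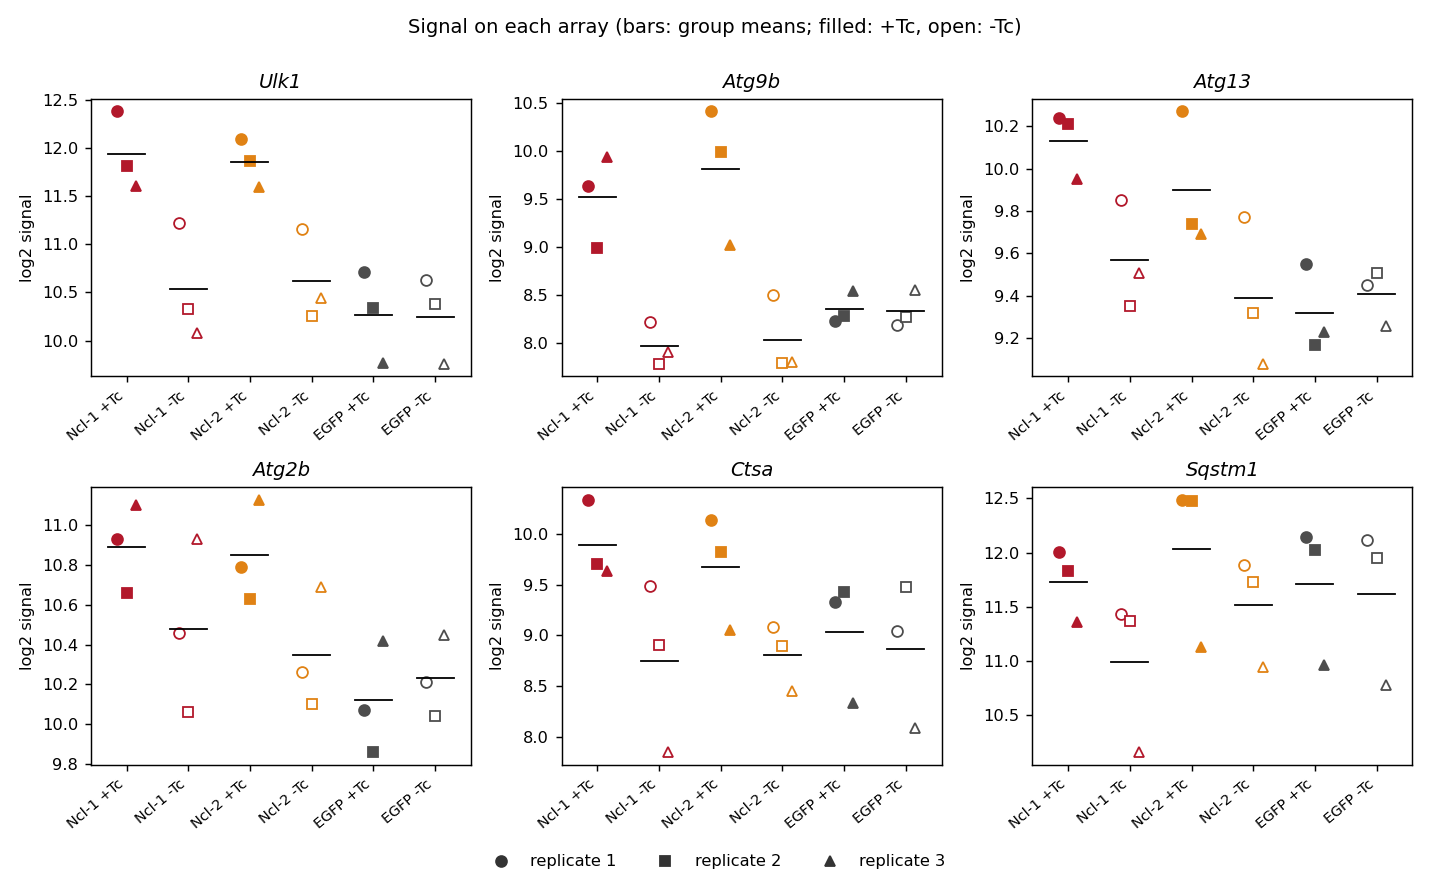
Log2 signal on each of the 18 arrays for Ulk1, Atg9b, Atg13, Atg2b, Ctsa and Sqstm1, with black bars for group means and a symbol for each replicate number. Each panel has its own axis. Ulk1 and Atg9b separate with and without Tc in both nucleolin lines, while Atg2b and Sqstm1 separate within a replicate number but overlap as groups.

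The other genes of initiation and lipid transfer had smaller changes. Atg13, the ULK1 complex subunit, had a log2 signal of 10.24, 10.21 and 9.95 in the Ncl-1 line with Tc, against 9.85, 9.35 and 9.51 without it. The Ncl-2 line gave 10.27, 9.74 and 9.69 with Tc, against 9.77, 9.32 and 9.08 without it. Its change of 0.56 ± 0.23 in the Ncl-1 line and 0.51 ± 0.23 in the Ncl-2 line passed only with the block (limma adjusted p = 0.0143 and 0.023, against 0.168 and 0.218 without it). All 3 same-numbered pairs were higher with Tc in either nucleolin line.

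Atg2b, a lipid transfer gene, had a log2 signal of 10.93, 10.66 and 11.10 in the Ncl-1 line with Tc, against 10.46, 10.06 and 10.93 without it. Ncl-2 cells gave 10.79, 10.63 and 11.13 with Tc, against 10.26, 10.10 and 10.69 without it. The groups overlapped, but each of the 3 pairs was higher with Tc in both lines. The change of 0.41 ± 0.26 and 0.50 ± 0.26 passed only with the block (limma adjusted p = 0.0329 and 0.0116, against 0.422 and 0.293). The 2 further Atg2b probes, of lower signal, gave 0.98 ± 0.29 and 0.31 ± 0.25 in the Ncl-1 line and 0.90 ± 0.29 and 0.38 ± 0.25 in the Ncl-2 line. With the block, Atg13 (0.62 ± 0.19, limma adjusted p = 0.0382) and Atg2b (0.57 ± 0.16, limma adjusted p = 0.0284) also differed between nucleolin and EGFP responses. The Atg13 difference held in 7 of 18 removals of 1 array (adjusted p up to 0.133) and the Atg2b difference in 12 of 18 (up to 0.0832). Together with Ulk1 and Atg9b these were the 4 such calls (7.41% of members, against 14.3% of all genes, 8.85% higher and 5.48% lower). All 4 belong to the 9 genes of initiation and lipid transfer. That grouping was not tested, and the members were chosen with earlier results of these data known.

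Of those 9 genes, Atg101, Atg2a, Atg9a, Becn1 and Ulk2 were not called in either line in either fit. Ulk2, the paralog of Ulk1, had a change of -0.70 ± 0.34 in the Ncl-1 line and -0.44 ± 0.34 in the Ncl-2 line (limma adjusted p = 0.277 and 0.571). It was detected on only 1 of 3 arrays with Tc in either line, so these values are taken against signals mostly not above background, and Ncl-2 pair 2 differed by 0.50 the other way. Becn1, for Beclin 1, had -0.08 ± 0.47 and -0.16 ± 0.47.

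**Figure D3:**
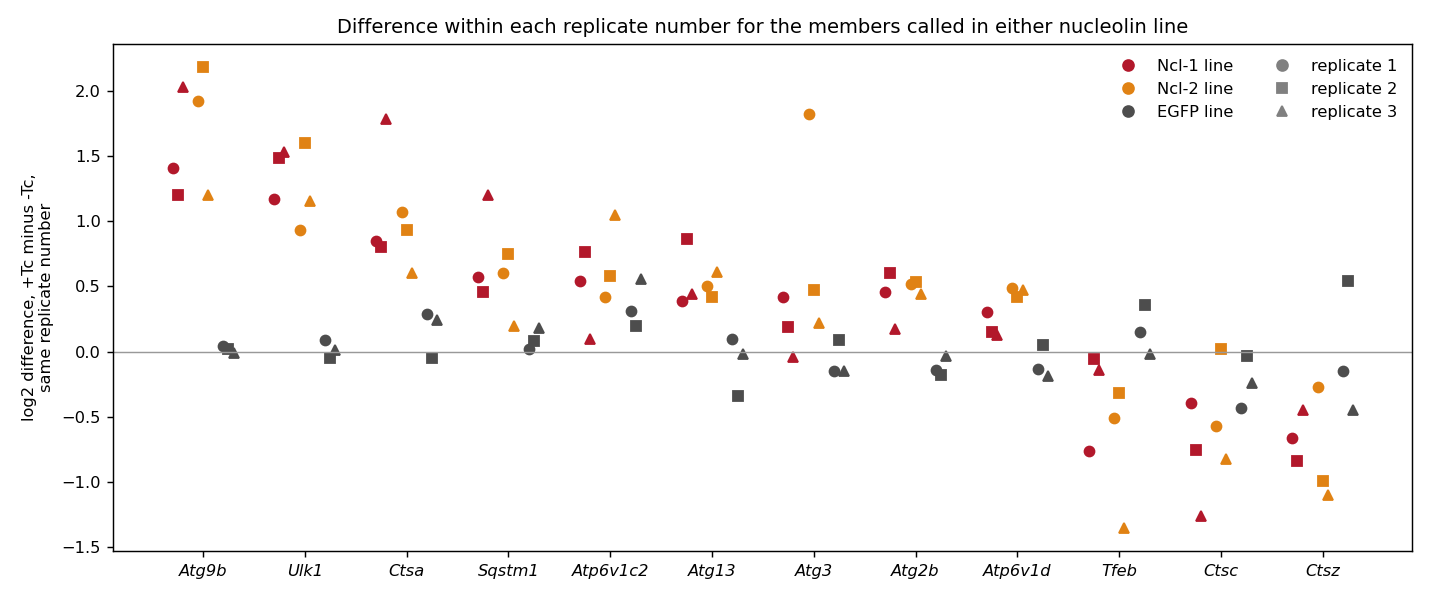
Log2 difference between the +Tc and -Tc arrays of the same replicate number, for the 12 genes called in either nucleolin line with or without the replicate block. Each gene shows 3 pairs for the Ncl-1, Ncl-2 and EGFP lines. Ulk1 lies at 0.93 to 1.60 in all 6 nucleolin pairs and at -0.05 to 0.09 in the EGFP pairs, and Atg9b at 1.20 to 2.18 and -0.01 to 0.04.

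The sequences upstream of Ulk1 and Atg9b are shown because these are the genes called, and those of Ctsa and Lamp1 because they hold the E-box CACGTG, the core of the site that TFEB is known to bind. Each is the 250 bases before a RefSeq start site (GRCm38.p6), 5′ to 3′ on the strand of the gene, with CACGTG in capitals. Of the 69 genes, 55 matched a promoter entry by symbol. Ulk1 lies at chr5:110810082-110810331, minus strand, Atg9b at chr5:24392144-24392393, minus strand, Ctsa at chr2:164833523-164833772, plus strand (the second of its 2 starts in the table), and Lamp1 at chr8:13158911-13159160, plus strand.
Ulk1: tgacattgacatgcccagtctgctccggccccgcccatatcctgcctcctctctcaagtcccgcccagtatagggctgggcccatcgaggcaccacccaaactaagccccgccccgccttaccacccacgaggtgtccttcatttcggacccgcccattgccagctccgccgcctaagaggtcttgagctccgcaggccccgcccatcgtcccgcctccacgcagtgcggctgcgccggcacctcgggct
Atg9b: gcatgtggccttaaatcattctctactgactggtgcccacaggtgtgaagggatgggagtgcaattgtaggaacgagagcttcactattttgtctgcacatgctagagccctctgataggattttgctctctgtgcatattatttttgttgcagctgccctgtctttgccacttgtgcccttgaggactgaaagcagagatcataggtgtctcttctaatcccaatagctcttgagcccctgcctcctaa
Ctsa: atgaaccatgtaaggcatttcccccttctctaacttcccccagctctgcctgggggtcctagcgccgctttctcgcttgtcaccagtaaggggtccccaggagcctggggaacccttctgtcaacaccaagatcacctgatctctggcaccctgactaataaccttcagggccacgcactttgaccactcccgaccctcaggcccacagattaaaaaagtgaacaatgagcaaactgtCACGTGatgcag
Lamp1: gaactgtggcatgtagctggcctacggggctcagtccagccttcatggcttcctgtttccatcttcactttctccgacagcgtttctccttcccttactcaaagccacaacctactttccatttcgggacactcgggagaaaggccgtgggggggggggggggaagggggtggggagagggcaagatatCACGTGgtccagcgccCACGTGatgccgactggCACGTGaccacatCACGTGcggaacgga
The Ulk1 and Atg9b windows hold no CACGTG, Ctsa holds 1 that begins 12 bases before the start, and Lamp1 holds 4 within 61 bases of it.

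CACGTG, searched on both strands (it reads the same on each), was in the windows of 10 of the 55 genes (18.2%), against 1854 of all 27025 genes in the table (6.86%) and 1331 of its 17492 protein-coding genes (7.61%). TCACGTG, which overlaps it, was in 7 (12.7%), against 3.58% of all genes. The median G and C content was 56.4% for the members and 55.2% for protein-coding genes. The 10 genes with CACGTG were Atg3, Atg5, Atg7, Atp6v0b, Atp6v1a, Ctsa, Ctsd, Ctsf, Ctsl and Lamp1. Of the 9 of them tested, 0 were called in either nucleolin line without the block. With the block 1 was called in the Ncl-1 line and 2 in the Ncl-2 line, against the 26.7% and 26.9% of all genes given above. A match is a string of letters and not a measured site.

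The conjugation genes were not called in the Ncl-1 line in either fit (0 of 10), and Atg3, for the enzyme that joins LC3 to lipid, was the only call in the Ncl-2 line, with the block. Its change there was 0.84 ± 0.97 (limma adjusted p = 0.768, or 0.0491 with the block). Its pairs differed by 1.82, 0.47 and 0.22, so replicate 1 held most of the change, and the call held in 7 of 18 removals. Without the block, leaving out Ncl-2 -Tc replicate 1 turned the change to -0.07. Atg5 had a change of 0.35 ± 0.18 and 0.38 ± 0.18, and Atg7, for the activating enzyme, 0.37 ± 0.42 and 0.09 ± 0.42. Neither passed in either fit.

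None of the 5 LC3 and GABARAP genes was called in any line in either fit. Their changes ran from -0.29 to 0.31 in the Ncl-1 line, from -0.39 to 0.62 in the Ncl-2 line and from -0.11 to 0.21 in the EGFP line. Gabarap had 0.31 ± 0.22 in the Ncl-1 line and -0.08 ± 0.22 in the Ncl-2 line, and Map1lc3a 0.23 ± 0.36 and 0.09 ± 0.36. Gabarapl1 had -0.19 ± 0.38 and -0.39 ± 0.38, and Gabarapl2 -0.03 ± 0.96 and 0.62 ± 0.96.

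Map1lc3b, the LC3 gene most used as an autophagy marker, shows how far signals can move with the replicate number. It had a log2 signal of 5.58, 7.16 and 9.29 in the Ncl-1 line with Tc and 5.84, 7.53 and 9.52 without it. For Ncl-2 the values were 5.87, 7.55 and 9.58 with Tc and 5.18, 7.65 and 9.36 without it. The EGFP line had 6.40, 6.64 and 9.33 with Tc and 6.77, 6.67 and 9.27 without it. All 6 replicate 3 arrays lay at 9.27 or higher, and no other array lay above 7.65.

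The change of Map1lc3b was -0.29 ± 1.32 in the Ncl-1 line and 0.27 ± 1.32 in the Ncl-2 line, and the standard error was 0.35 with the block. Replicate 3 arrays lay above their group mean by 1.88 on average for Map1lc3b, by 1.84 for Atp6v1a, 1.46 for Gabarapl2, 1.32 for Atg3 and 1.15 for Ctsb. The 6 replicate 3 arrays also had a mean raw intensity of 625 to 837 units, against 280 to 596 on the other 12. The part of that difference in these offsets was not tested.

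Sqstm1, for the cargo receptor p62, had a log2 signal of 12.01, 11.83 and 11.36 in the Ncl-1 line with Tc, against 11.43, 11.37 and 10.16 without it. The Ncl-2 arrays read 12.49, 12.48 and 11.13 with Tc, against 11.89, 11.73 and 10.94 without it. The EGFP arrays read 12.14, 12.02 and 10.96 with Tc, against 12.12, 11.95 and 10.78 without it. The groups overlapped in all lines, while each of the 3 pairs was higher with Tc in both nucleolin lines. The EGFP pairs were also higher with Tc, by 0.02, 0.08 and 0.18. The Sqstm1 change of 0.74 ± 0.49 in the Ncl-1 line and 0.52 ± 0.49 in the Ncl-2 line passed only with the block (± 0.17, limma adjusted p = 0.00389 and 0.0306). The difference from the EGFP response, 0.54, did not pass with the block (limma adjusted p = 0.0936).

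Tfeb had a log2 signal of 4.90, 5.45 and 4.83 in the Ncl-1 line with Tc, against 5.66, 5.51 and 4.97 without it. The Ncl-2 line gave 4.83, 5.22 and 5.02 with Tc, against 5.35, 5.54 and 6.37 without it. The Ncl-2 groups did not overlap, and the highest value, in replicate 3 without Tc, stood apart. The change was -0.32 ± 0.28 in the Ncl-1 line and -0.73 ± 0.28 in the Ncl-2 line, where it passed only with the block (limma adjusted p = 0.04, against 0.133). That call held in 12 of 18 removals. Tfeb entered the test only through the Ncl-2 line without Tc, where it was detected on 3 arrays and was highest, and it was detected on 1 of 3 Ncl-2 arrays with Tc. The change is thus taken against signals mostly not above background, and the choice of tested genes already favoured a difference here. The mRNA level says nothing of where the TFEB protein lies, which is known to control its activity.

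Counts for the V-ATPase genes, read against the 8.12% and 9.13% of all genes called without the block and 26.7% and 26.9% with it, show nothing particular to them. Of 6 tested V0 genes, 0 were called in any line in either fit, and their changes ran from -0.08 to 0.43 in the Ncl-1 line and from -0.15 to 0.28 in the Ncl-2 line. Of 9 tested V1 genes, 0 were called in the Ncl-1 line in either fit, and 2 rose in the Ncl-2 line with the block only. These were Atp6v1c2 (0.68 ± 0.37, limma adjusted p = 0.0256) and Atp6v1d (0.46 ± 0.18, limma adjusted p = 0.0298). Atp6v1c2 also had 0.35 in the EGFP line, with all 3 pairs higher with Tc.

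Atp6v1d had a log2 signal of 12.43, 12.41 and 12.04 in the Ncl-2 line with Tc, against 11.93, 11.99 and 11.56 without it. These Ncl-2 groups did not overlap. The pump's catalytic subunit gene Atp6v1a had 0.06 ± 1.22 in the Ncl-1 line and 0.63 ± 1.22 in the Ncl-2 line, and the regulatory subunit gene Atp6v1h -0.17 ± 0.18 and -0.19 ± 0.18. Atp6v0c, which encodes the ring subunit of V0, was not analysed here.

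Of the 11 tested cathepsin genes 0 passed without the block, and those that passed with it lay in both directions. Ctsa encodes cathepsin A, a serine carboxypeptidase. Its log2 signal was 10.34, 9.70 and 9.63 in the Ncl-1 line with Tc, against 9.49, 8.90 and 7.85 without it. Ncl-2 cells gave 10.14, 9.82 and 9.05 with Tc, against 9.08, 8.89 and 8.45 without it. The groups did not overlap in the Ncl-1 line, and overlapped in the Ncl-2 line. The change of 1.14 ± 0.46 and 0.87 ± 0.46 passed with the block only (limma adjusted p = 0.0017 and 0.0104, against 0.155 and 0.312). A further detected Ctsa probe gave -0.09 ± 0.77 and -0.16 ± 0.77, so the probes disagreed, although the annotation gives them the same transcript.

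Ctsc, for the dipeptidyl peptidase that activates granule proteases, had a log2 signal of 8.05, 7.86 and 7.91 in the Ncl-1 line with Tc, against 8.43, 8.61 and 9.17 without it. The Ncl-1 groups did not overlap. It lay just outside the threshold there (-0.80 ± 0.24, limma adjusted p = 0.0539) and fell with the block (limma adjusted p = 0.0166). It passed without the block when Ncl-1 -Tc replicate 1 (limma adjusted p = 0.0433) or Ncl-2 +Tc replicate 2 (0.0406) or 3 (0.0303) was left out. In the Ncl-2 line it had -0.46 ± 0.24, which did not pass in either fit. The EGFP line had -0.23 ± 0.24, and its pairs were also lower with Tc, by -0.43, -0.03 and -0.24. For Ctsc the difference between nucleolin and EGFP responses was not called in either fit.

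Ctsz, for the carboxypeptidase cathepsin Z, had a log2 signal of 6.58, 7.32 and 7.92 in the Ncl-1 line with Tc, against 7.24, 8.15 and 8.36 without it. For Ncl-2 the values were 6.93, 7.57 and 7.93 with Tc, against 7.20, 8.56 and 9.02 without it. Both pairs of groups overlapped, and all 6 same-numbered pairs were lower with Tc. The change of -0.65 ± 0.47 and -0.79 ± 0.47 passed with the block only (limma adjusted p = 0.0465 and 0.0179). The call held in 6 of 18 removals in the Ncl-1 line and in 14 of 18 in the Ncl-2 line. A further Ctsz probe gave -0.69 and -0.94.

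The main lysosomal endopeptidase genes were not called in either fit. Ctsb had a change of 0.23 ± 0.79 in the Ncl-1 line and 0.46 ± 0.79 in the Ncl-2 line, and Ctsl -0.03 ± 0.39 and 0.01 ± 0.39. Ctsd, for the aspartic protease cathepsin D, was detected on 9 of the 18 arrays and on all 3 arrays of no group, so it was not tested. The genes Ctsj, Ctsm and Ctsq, which in mice belong to a cathepsin cluster of the placenta, were likewise not tested, having been detected on at most 1 array for any probe. Ctsr, which lies between Ctsq and Ctsm on chromosome 13, was tested and not called in either fit. Its change was -0.14 ± 0.40 in the Ncl-1 line and 0.06 ± 0.40 in the Ncl-2 line, at group means of only 5.49 to 5.68. Trophoblast markers moved in the same samples. Of 8 such markers on the array only Krt7 and Ascl2 could be tested, and their summed signal was 254 to 1120 in the Ncl-1 line with Tc against 64.2 to 94.9 without it. It was 523 to 826 in the Ncl-2 line with Tc against 58.5 to 81.4 without it, and 69.6 to 88.2 against 66.2 to 91.1 in the EGFP line. Prl2c2 and Tpbpa were detected on no array, and the part of these markers in any result here was not tested.

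Lamp1 and Lamp2 encode the most abundant proteins of the lysosomal membrane. Lamp1 had a log2 signal of 13.31, 12.96 and 12.73 in the Ncl-1 line with Tc, against 12.96, 12.79 and 12.70 without it, and its groups overlapped. Its change was 0.18 ± 0.27 in the Ncl-1 line and -0.09 ± 0.27 in the Ncl-2 line, not called in either fit.

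Lamp2 gave different answers from different probes. Of its 6 kept probes, 4 are assigned to NM_001017959 or NM_010685 by the platform annotation, and these were compared by transcript. Lamp2 is known to make several splice forms with different ends, of which LAMP-2A serves chaperone-mediated autophagy. The annotation does not say which form a transcript encodes. The probe that represents the gene, assigned to NM_010685, had a log2 signal of 9.88, 10.15 and 10.69 in the Ncl-1 line with Tc, against 9.52, 9.77 and 11.42 without it. The Ncl-2 arrays read 9.51, 10.16 and 10.99 with Tc, against 9.50, 10.07 and 10.60 without it. Its change was 0.00 ± 0.62 and 0.16 ± 0.62. The other detected NM_010685 probe gave -0.04 ± 0.88 and 0.22 ± 0.88.

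A Lamp2 probe assigned to NM_001017959 (ILMN_3074259) had a log2 signal of 10.69, 10.37 and 10.04 in the Ncl-1 line with Tc, against 9.16, 8.57 and 9.14 without it. The Ncl-2 line gave 10.72, 10.54 and 10.18 with Tc, against 9.92, 9.25 and 8.59 without it. The EGFP line gave 9.18, 8.52 and 8.60 with Tc, against 9.04, 8.93 and 8.45 without it. No array with Tc overlapped those without it in either nucleolin line.

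The change of that Lamp2 probe was 1.41 ± 0.33 in the Ncl-1 line and 1.22 ± 0.33 in the Ncl-2 line (limma adjusted p over all kept probes 0.0178 and 0.0346), and -0.04 ± 0.33 in the EGFP line. The other detected NM_001017959 probe gave 1.05 ± 0.30 and 0.93 ± 0.30 and passed with the block only (limma adjusted p = 0.00133 and 0.00289, against 0.0523 and 0.081). The nucleolin response of ILMN_3074259 exceeded its EGFP response by 1.35 ± 0.40, which passed with the block (limma adjusted p = 0.00301, against 0.109 without it).

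Within same-numbered Lamp2 pairs, the mean of the 2 NM_001017959 probes differed by 1.32, 1.56 and 0.80 in the Ncl-1 line and by 0.71, 1.11 and 1.42 in the Ncl-2 line. The mean of the 2 NM_010685 probes differed by 0.42, 0.21 and -0.68, and by 0.09, -0.09 and 0.57. The gap between the transcripts averaged 1.06 ± 0.33 (SD, n = 6 pairs) and was positive in all 6 pairs, against 0.02 ± 0.14 (SD, n = 3 pairs) in the EGFP line. The remaining kept probes had lower signal. ILMN_2577206, assigned to AK051989, gave 1.03 ± 0.68 and 0.64 ± 0.68 (limma adjusted p = 0.0207 and 0.131 with the block), and ILMN_1258632, assigned to AK078193, gave -0.07 ± 0.30 and 0.19 ± 0.30. A further NM_001017959 probe, ILMN_2508945, was detected on 7 arrays and not kept, and its replicate 3 arrays stood above the others, as for NM_010685. Within each replicate number it was higher with Tc in both nucleolin lines, as for the kept NM_001017959 probes. It read 4.58, 4.97 and 7.33 in the Ncl-1 line with Tc, against 4.48, 4.52 and 6.72 without it. For Ncl-2 it read 4.86, 5.33 and 7.63, against 4.40, 4.45 and 5.95. EGFP cells gave 4.53, 4.30 and 5.69, against 4.44, 4.42 and 5.97. Most of these signals were not above background. The comparison by transcript thus rests on 4 probes and was chosen after the values were seen, so it is a description and carries no test. Counting a gene when any of its probes was called gave 3 calls in either nucleolin line in place of 2, with Lamp2 as the addition.

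**Figure D4:**
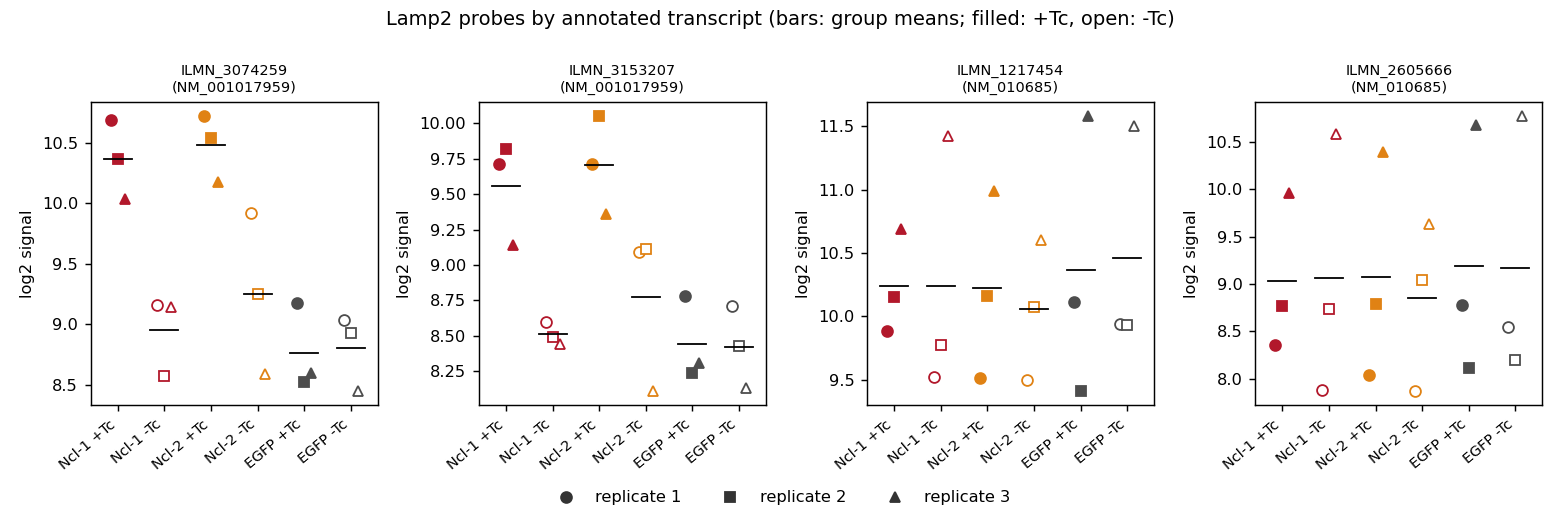
Log2 signal on each array of 4 of the 6 kept Lamp2 probes, those assigned to NM_001017959 or NM_010685, with their assigned transcript, black bars for group means and a symbol for each replicate number. Each panel has its own axis. The 2 probes of NM_001017959 are higher with Tc in both nucleolin lines, while the 2 probes of NM_010685 divide by replicate 3 against the others.

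The lines also differed before induction, though without the block 0 of the 54 genes were called when uninduced Ncl-1 or Ncl-2 cells were set against uninduced EGFP cells (limma, 3 and 6 at an unadjusted p below 0.05). Of all genes 0.985% (0.587% higher and 0.398% lower) and 0.928% (0.464% each way) were called. At an unadjusted limma p below 0.05 there were 1005 and 1148 of all 10557 genes. With the block, 2 were higher and 4 lower in the Ncl-1 line (11.1%, against 8.62% of all genes, 4.11% higher and 4.51% lower), and 3 were higher and 2 lower in the Ncl-2 line (9.26%, against 12.2%, 5.76% higher and 6.43% lower). Both comparisons share the EGFP arrays without Tc. Ctsf had a log2 signal of 9.13, 8.88 and 7.86 in the Ncl-1 line and 8.70, 8.46 and 8.34 in the Ncl-2 line, against 7.75, 7.67 and 6.99 in the EGFP line. It was higher by 1.15 ± 0.37 and 1.03 ± 0.37 (limma adjusted p = 0.00579 and 0.00904 with the block).

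Becn1 had 8.04, 8.47 and 7.12 in the Ncl-1 line and 8.36, 8.34 and 7.50 in the Ncl-2 line, against 8.83, 9.07 and 8.35 in the EGFP line, all without Tc. It was lower by -0.87 ± 0.47 and -0.68 ± 0.47 (limma adjusted p = 0.00739 and 0.0227 with the block). Ctse was also higher and Atp6v0e2 lower in both lines with the block. Atp6v0b was higher in the Ncl-2 line (0.68 ± 0.33, limma adjusted p = 0.018 with the block), while the Ncl-1 line had less Sqstm1 and Atg10 (-0.63 and -0.57, with block-adjusted limma p of 0.0273 and 0.046). For the difference between the Ncl-1 and Ncl-2 responses to Tc, limma called 0 of the 54 genes, against 0% of all genes. At an unadjusted limma p below 0.05, without the block, there were 0 of 54, against 41 of all 10557 genes.

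The members nearest to the threshold from outside were Ctsc and Ctsa in the Ncl-1 line and Tfeb and Atp6v1d in the Ncl-2 line (limma adjusted p = 0.0539, 0.155, 0.133 and 0.145). Of the 69 genes, 15 were not detected on all arrays of any group and went untested. Besides Ctsd and the placental cathepsins Ctsj, Ctsm and Ctsq, they included Ctss and Ctsg, cathepsins of blood cells. The tissue-restricted pump and LAMP genes Atp6v0d2, Atp6v1g3 and Lamp3 were also among them.

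Other genes of the same routes, outside the naming rule, included calls of larger size. Of 30 tested lysosomal enzymes, 3 rose and 1 fell in either nucleolin line without the block, and 6 rose and 6 fell in the Ncl-1 line and 5 and 5 in the Ncl-2 line with it. Counts in these lists stand beside 8.12% (Ncl-1) and 9.13% (Ncl-2) of all genes called without the block, and 26.7% and 26.9% with it. Man2b1, for lysosomal alpha-mannosidase, rose by 2.43 ± 0.18 in the Ncl-1 line and 2.52 ± 0.18 in the Ncl-2 line (limma adjusted p = 2.2e-06 and 1.5e-06). Gaa, for acid alpha-glucosidase, rose by 1.75 ± 0.36 and 1.48 ± 0.36 (limma adjusted p = 0.00669 and 0.0174), and the hyaluronidase gene Hyal1 by 2.42 ± 0.63 and 2.53 ± 0.63 (0.0259 and 0.0188). Arsb, for arylsulfatase B, fell by 1.47 and 1.34 on the log2 scale (0.0133 and 0.0205).

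The median log2 change of those 30 enzymes was -0.11 and 0.00, beside -0.04 and -0.05 over all genes. Of 32 further autophagy genes, 2 rose in the Ncl-1 line (Trp53inp1, 1.43 ± 0.23, and Ei24, 0.89 ± 0.22) and 2 in the Ncl-2 line (Trp53inp1, 1.59 ± 0.23, and Wipi1, 1.01 ± 0.29). Trp53inp1 encodes a p53-inducible protein that binds LC3, and Wipi1 one that binds the phosphoinositide of the forming autophagosome. With the block 5 rose and 1 fell in the Ncl-1 line and 6 rose in the Ncl-2 line, and the list's median change was -0.00 and 0.12.

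Of 32 membrane, sorting and fusion genes, Ctns, for the cystine exporter, rose in both lines (0.73 ± 0.19 and 0.70 ± 0.19). Laptm5 rose in the Ncl-2 line (1.11 ± 0.32), and the sorting receptor gene Sort1 fell in the Ncl-1 line (-1.14 ± 0.32). With the block 5 rose and 1 fell in either line, and the median change was 0.22 and 0.23. Of 30 mTORC1 and TFE regulators, Ddit4, for an inhibitor of mTORC1, was the only call without the block (2.21 ± 0.58, limma adjusted p = 0.0279, for Ncl-1 and 1.57 ± 0.58, limma adjusted p = 0.122, for Ncl-2). With the block 8 rose and 1 fell in the Ncl-1 line and 4 rose and 2 fell in the Ncl-2 line, with a median change of 0.15 and 0.21. Among all of these, the difference between nucleolin and EGFP responses passed without the block for Man2b1 (2.43 ± 0.22, limma adjusted p = 5.3e-05) and Trp53inp1 (1.46 ± 0.28, limma adjusted p = 0.00885).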

How the data were processed

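Total RNA of 18 samples was measured on 1-colour Illumina arrays, after Trizol extraction, DNase treatment and labelling as biotinylated cRNA, per the labels' protocols. The authors deposited probe intensity values that were not normalized between arrays, each with a detection p-value, per the file headers. GenomeStudio 2010.1 is named in the submitters' processing notes. A second deposited intensity table, whose normalization no source states, was an alternative; its medians were 7.55 to 7.59 for replicates 1 and 2 and 9.95 to 9.99 for replicate 3.

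From the deposited intensity values, normexp background correction (offset 16, control levels inferred from detection p), quantile normalization and log2 were computed with limma 3.58.1 in R 4.3.3. Probes detected (p below 0.05) on all 3 arrays of a group were kept (19154 of 45281), and the kept probe of highest mean signal stood for each gene (10557 genes). Of all probes, 34885 had 1 gene symbol, 18 several and 10378 none, and all 128 member probes had an identifier in the RefSeq table (GRCm38.p6) with no symbol changed. Of the member genes, 19 had several kept probes, and 0 had probes called in both directions with the block. A linear model with 6 group means gave two-sided moderated tests, adjusted by Benjamini-Hochberg over all genes. The script was tested on simulated data.

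Deviations from group means correlated at 0.30 to 0.96 (median 0.71) over the 45 array pairs that share a replicate number in the labels, against a median of -0.40 in 90 pairs with different numbers. The numbers were therefore taken as pairing the samples, and a fit with that block was the main alternative. Between 18099 and 21015 probes (40% to 46.4%) were detected per array, and with 3 arrays a group their number sets the precision. No arrays were identical.

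The members and gene lists were chosen with earlier results of these data known. Genes named are nucleolin, every member called in a response with or without the block, a fixed set of pathway members, members called between lines without Tc, up to 6 undetected members, the 2 members nearest outside the threshold in each nucleolin line, and up to 5 called genes of each further list (by smallest p in the nucleolin minus EGFP difference). A few further members and probes are named beside them for comparison.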

Additional observations from a re-analysis of the deposited data

Results flagged for a closer look

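For 4 genes the mean response to Tc in the nucleolin lines differed from that in the EGFP line by the test of the difference itself. Atg9b differed by 1.64 ± 0.40 on the log2 scale without the replicate block (limma adjusted p = 0.0364) and by 1.64 ± 0.36 with it (0.00573). The other 3 passed with the block only. Ulk1 differed by 1.29 ± 0.21 (limma adjusted p = 7.6e-04, against 0.145 without the block). Atg13 differed by 0.62 ± 0.19 (limma adjusted p = 0.0382) and Atg2b by 0.57 ± 0.16 (limma adjusted p = 0.0284). Leaving out 1 array kept the Atg13 difference in 7 of 18 removals and the Atg2b difference in 12 of 18. In all 6 nucleolin pairs each of these genes was higher with Tc.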

How the results depend on the processing

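Counts of called members followed the treatment of replicate number and of samples in the fit. With the replicate block 8 genes were called in the Ncl-1 line, 11 in the Ncl-2 line and 4 in the nucleolin minus EGFP difference, and 6 (Ncl-1) and 5 (Ncl-2) between lines without Tc. With array weights, whose estimation stopped before convergence, these counts were 15, 27, 8, 18 and 21, with 4 for the Ncl-1 minus Ncl-2 difference. A fit of only the 2 groups compared called 0 genes in the Ncl-1 line and 0 in the Ncl-2 line. Without a detection filter 1 was called in the Ncl-2 line and 0 in the nucleolin minus EGFP difference, where the deposited normalized table gave 2. Replicates 1 and 2 alone gave 4 in the Ncl-2 line, and 3 (Ncl-1) and 1 (Ncl-2) between lines without Tc. Leaving out 1 array gave 1 to 3 calls in the Ncl-1 line (4 to 8 with the block) and 1 to 2 in the Ncl-2 line (5 to 12, with 9 and 10 among them). The same removals gave 0 to 1 (2 to 5) in the nucleolin minus EGFP difference, and 0 between lines without Tc (2 to 6 and 2 to 7 with the block). The causes were not tested, beyond the smaller number of arrays in some of these fits. Shares of all genes called were given above only for the main fit and the block. Counts under the other settings therefore do not show whether the members moved apart from all genes. No change called without the block reversed its sign under any alternative run. Atg3, called in the Ncl-2 line with the block (0.84), turned to -0.07 without the block when Ncl-2 -Tc replicate 1 was left out. The block changed no call in the EGFP line or between the Ncl-1 and Ncl-2 responses. All of these are limited by 3 arrays a group.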
